A study of Homo sapiens with 4 samples.

Results

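Transcripts of 10 genes that mark absorptive cells of the intestine or belong to the CEACAM family were measured in cultures labelled HT-29, a line from a human colorectal adenocarcinoma. The genes are CEACAM1, CEACAM5, CEACAM6, CEACAM7, LGALS4, VIL1, ALPI, DPP4, FABP1 and CA2. They were chosen by symbol, with earlier results of these data known. All 10 had a probe on the Illumina HumanHT-12 V4 BeadChip, with 13 probes in all, out of 20044 genes and 47227 probes. There were 4 arrays, each the only array of its group. On chip 1 were cells given 20 µM cyclopamine, an alkaloid that blocks Smoothened in the Hedgehog pathway, for 48 h, and a control whose labels disagree: the source name says tomatidine, the title and treatment say DMSO. On chip 2 were cells given 20 µM GANT61, an inhibitor of the GLI transcription factors, for 48 h, and a DMSO control. Both chips carry the same cell line label, and the labels name no clone, passage or culture batch.

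Absorptive colonocytes line the surface of the large intestine. They carry a brush border of microvilli, held up by actin bundles that villin crosslinks, and on it sit anchored enzymes such as intestinal alkaline phosphatase and dipeptidyl peptidase. CEACAM proteins, of the carcinoembryonic antigen family, are immunoglobulin-like adhesion molecules in the surface coat of these cells, and several are known as markers of colorectal cancer.

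Before the results, the labelled cell type was set against its markers. Of 10 epithelial markers, 9 were above background on each chip 2 array and 3 on each chip 1 array. Their summed intensity was 25171 with GANT61 and 30277 in the chip 2 control, against 2842 with cyclopamine and 3164 in the chip 1 control. EPCAM, the epithelial adhesion molecule used to define such cells, had intensities of 6717 with GANT61 and 8032 in the chip 2 control, but 80.2 with cyclopamine and 81 in the chip 1 control, not above background. Of 10 mesenchymal markers, 5 were above background on each chip 1 array and 3 on each chip 2 array, with sums of 7131 with cyclopamine and 8174 in the chip 1 control, against 833 with GANT61 and 905 in the chip 2 control. The 3 epithelial markers above background on chip 1 were KRT8, CLDN7 and KRT18. With cyclopamine and in the chip 1 control they read 1465 and 1561, 539.8 and 806, and 295 and 282, in that order. KRT18 had a log2 ratio of -0.08 between the controls. Mesenchymal markers outside those 5 were above background on no array. Most epithelial markers looked for under the HT-29 label were thus not above background on chip 1, and the chips are described apart. For each compound the comparison is with the control on the same chip. Across chips, chip and cell state cannot be told apart.

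A probe counted as above background at a detection p under 0.01, which ranks its brightness against negative control beads of the array. By that rule the cyclopamine array had 2 of the 10 genes (ALPI and DPP4) and the chip 1 control had 1 (ALPI). The GANT61 array had 6 (CEACAM1, CEACAM6, LGALS4, VIL1, DPP4 and CA2), and the chip 2 control had 7, the same genes with FABP1 added. Over all genes with a probe the shares were 41.9% with cyclopamine, 42.9% in the chip 1 control, 48.3% with GANT61 and 50.6% in the chip 2 control. Of the 6 genes above background on both chip 2 arrays, 5 were above background on neither chip 1 array, against 16.4% of the 9370 genes in all that met the first condition. The other way round, 1 of the 10 genes, ALPI, was above background on both chip 1 arrays, and it was on neither chip 2 array. Of the 8007 genes in all above background on both chip 1 arrays, 6.09% shared its pattern.

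**Figure D1:**
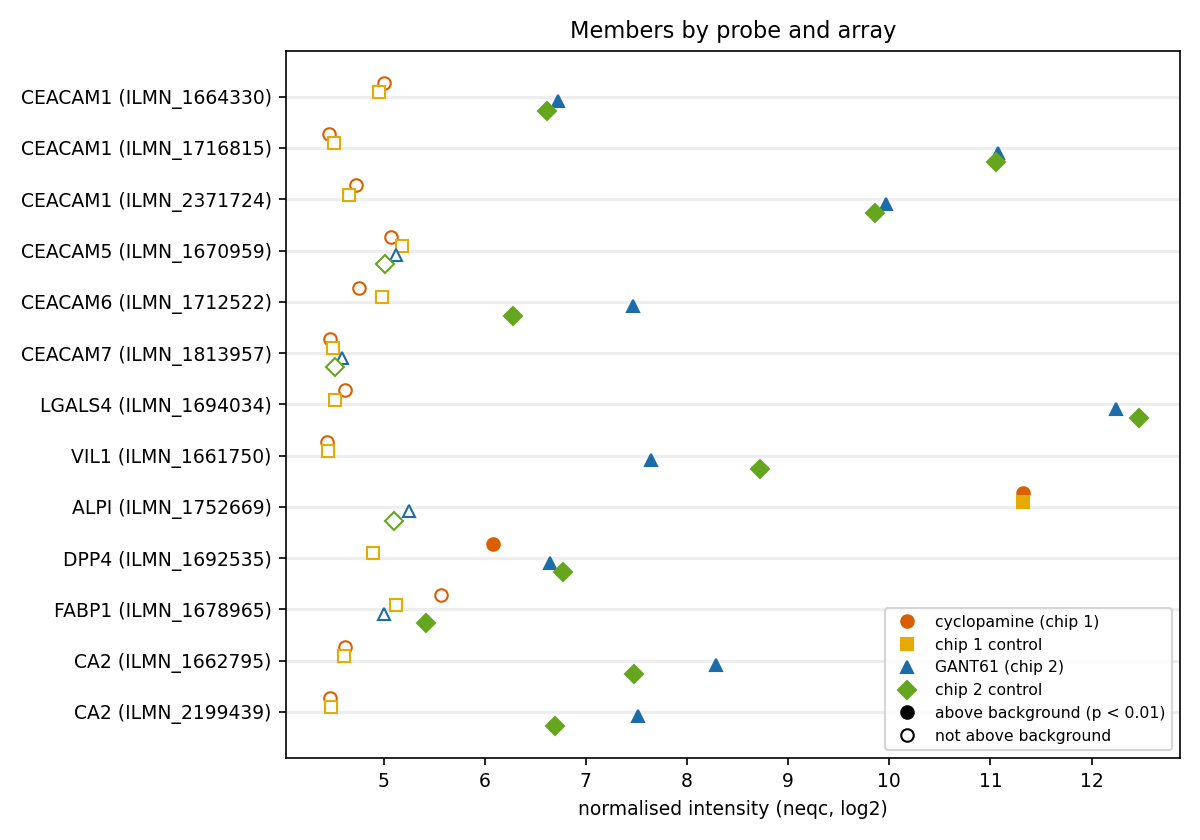
Normalised intensity (log2, x axis) of the 13 probes of the 10 genes (rows) on each of the 4 arrays, 1 array a group, with filled marks above background at a detection p under 0.01 and open marks below it. On chip 2 the 3 CEACAM1 probes, CEACAM6, LGALS4, VIL1, DPP4 and both CA2 probes are filled, whereas on chip 1 only ALPI on both arrays and DPP4 with cyclopamine are.

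The 4 CEACAM genes differed in presence within the same cells. On the human reference CEACAM7, CEACAM5 and CEACAM6 are consecutive coding genes on chromosome 19, and CEACAM1 lies further along it. CEACAM1 and CEACAM6 were above background on chip 2, and CEACAM5 and CEACAM7 on no array. Their promoter windows are shown because these neighbours are close copies of each other. Each is the 250 bases before the RefSeq start (GRCh38.p14), and capitals mark CACGTG, the E-box bound by helix-loop-helix factors such as USF, and GGGCGG, the GC box bound by SP1-type factors, on either strand (CCGCCC in the CEACAM1 window is GGGCGG of the other strand).
CEACAM1, chr19:42528482-42528731, minus strand: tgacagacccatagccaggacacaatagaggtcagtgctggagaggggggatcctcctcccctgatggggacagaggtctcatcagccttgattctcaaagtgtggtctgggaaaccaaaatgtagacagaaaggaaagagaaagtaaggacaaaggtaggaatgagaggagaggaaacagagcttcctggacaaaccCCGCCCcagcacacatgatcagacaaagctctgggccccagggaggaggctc
CEACAM5, chr19:41708376-41708625, plus strand: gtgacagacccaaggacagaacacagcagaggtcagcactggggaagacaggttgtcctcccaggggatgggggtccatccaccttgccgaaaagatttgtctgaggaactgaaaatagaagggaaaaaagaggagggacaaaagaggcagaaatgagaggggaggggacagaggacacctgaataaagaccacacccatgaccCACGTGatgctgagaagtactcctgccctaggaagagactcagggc
CEACAM6, chr19:41755280-41755529, plus strand: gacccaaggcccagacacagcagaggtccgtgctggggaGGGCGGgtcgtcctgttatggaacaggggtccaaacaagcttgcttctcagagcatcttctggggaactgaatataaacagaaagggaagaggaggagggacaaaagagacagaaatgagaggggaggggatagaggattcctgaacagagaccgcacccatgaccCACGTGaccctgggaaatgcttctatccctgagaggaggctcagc
CEACAM7, chr19:41688271-41688520, minus strand: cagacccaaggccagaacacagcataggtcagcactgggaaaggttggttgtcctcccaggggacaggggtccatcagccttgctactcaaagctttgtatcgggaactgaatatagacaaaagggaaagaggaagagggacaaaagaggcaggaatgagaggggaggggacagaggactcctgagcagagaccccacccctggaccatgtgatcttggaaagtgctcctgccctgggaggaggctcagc
In a global alignment, the 6 pairs among these windows matched at 71.2% to 82.4% of 250 bases, against 51.2% to 62% for the 22 pairs that hold another of the 8 windows. CACGTG stood in the windows of CEACAM5 and CEACAM6, 46 and 45 bases before the start. It was in neither CEACAM1 nor CEACAM7. So these letters were shared by a gene above background on chip 2 and by one that was not. GGGCGG stood in the windows of CEACAM1 and CEACAM6, 52 and 211 bases before the start, and in neither CEACAM5 nor CEACAM7. A link of either motif to presence was not tested. Of 35116 promoter windows, 6.34% held CACGTG and 42.6% held GGGCGG. Such matches describe the letters only.

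CEACAM1, the broadly expressed epithelial member of the family, which also carries inhibitory signals in immune cells, was bright on chip 2 and hardly moved with GANT61. At its brightest probe (ILMN_1716815) the intensity was 2016 with GANT61 and 2195 in the chip 2 control, against 50.2 with cyclopamine and 55 in the chip 1 control. The log2 ratio of normalised intensities, GANT61 over its control, was 0.03 at this probe, 0.11 at ILMN_2371724 (1042 with GANT61 and 1043 in the control) and 0.10 at ILMN_1664330 (167 and 171 in the same order). The 3 probes thus moved by less than the SD of 0.27 found between probes of a gene in this comparison (1900 genes with 2 probes). The sign at the brightest probe turned with median scaling and in the deposited series table. All 3 probes were below background on both chip 1 arrays. Between the controls the brightest probe was at least 37-fold lower on chip 1, ILMN_2371724 at least 16.2-fold and ILMN_1664330 at least 1.72-fold. These and the bounds that follow are on the normalised scale, from which background was subtracted.

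CEACAM6, a family member held in the membrane by a lipid anchor and known to be raised in colorectal tumours, was dim on chip 2 and higher with GANT61. Its probe read 248 with GANT61 and 143 in the chip 2 control, a log2 ratio of 1.19 or 2.28-fold. It was below background on chip 1, at 77.5 with cyclopamine and 86.8 in the chip 1 control. The value depends on how background is handled and lay between 0.79 and 1.19 over all settings tried, while the deposited intensities stood in a ratio of 1.73.

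CEACAM5, which encodes the carcinoembryonic antigen measured in serum of patients with colorectal cancer, was above background nowhere. Its probe read 91.4 with cyclopamine, 94.1 in the chip 1 control, 77.4 with GANT61 and 70.6 in the chip 2 control. CEACAM7, a marker of mature colonocytes, read 50.8 with cyclopamine, 53.1 in the chip 1 control, 50.7 with GANT61 and 45.9 in the chip 2 control. No change in either was detectable at this signal. Each has 1 probe here, and the array's probe sequences were not analysed here, so a probe that binds poorly was not told apart from a silent gene.

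Of 7 other CEACAM genes with a probe, 1 was above background on any array: CEACAM21, in the chip 1 control, with 118 there and 105 with cyclopamine. Over all genes, 11262 of 20044 were above background on at least 1 array. Outside the CEACAM names, the pregnancy-specific glycoprotein gene PSG4, of the same antigen family, was chosen after its values were seen. Its 3 probes were above background on both chip 1 arrays and on neither chip 2 array. The brightest read 528 with cyclopamine and 319.9 in the chip 1 control, a log2 ratio of 1.01, and the others gave 0.82 and 0.65. PSG genes are near-identical copies, so the symbol is uncertain.

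LGALS4, or galectin-4, a lectin of the intestinal epithelium that binds glycolipids at the apical membrane, had the highest intensity of these probes on chip 2. It read 4167 with GANT61 and 5735 in the chip 2 control, and 66.5 with cyclopamine and 55.6 in the chip 1 control. Its log2 ratio with GANT61 was -0.23, inside the spread between probes of a gene, and lay between -0.51 and -0.22 over the settings tried. Between the controls it was at least 99.5-fold lower on chip 1.
LGALS4, chr19:38812946-38813195, minus strand: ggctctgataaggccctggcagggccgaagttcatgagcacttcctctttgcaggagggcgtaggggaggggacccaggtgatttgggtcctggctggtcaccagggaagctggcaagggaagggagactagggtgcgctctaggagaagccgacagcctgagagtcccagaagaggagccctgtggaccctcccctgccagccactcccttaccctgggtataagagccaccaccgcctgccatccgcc
This window of 250 bases before the LGALS4 start, shown because the gene separated the chips by the widest margin of the 10, held neither CACGTG nor GGGCGG. It also lacked TTTATG, letters that the intestinal homeobox factor CDX2 can bind, which on either strand stood in 9.64% of all windows and in 1 of the 8 member windows, that of FABP1. Of a list of 8 genes made of other galectins and of LGALS3BP, which encodes a protein that galectins bind, 6 were above background on at least 1 array. So were 11262 of all 20044 genes. LGALS1, which mesenchymal cells make in quantity, ran opposite to LGALS4, with 6514 with cyclopamine and 7989 in the chip 1 control, against 203 with GANT61 and 301 in the chip 2 control. LGALS2 read 80.8 with GANT61, not above background, and 161 in the chip 2 control, a bound of at least 2.02-fold lower on the normalised scale. With GANT61 1 of the 6 tested genes of this list (LGALS2) was at least 2-fold lower and 0 higher, against 2.03% and 3.5% of all genes.

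VIL1, the gene of villin, which bundles and severs actin in microvilli, was lower with GANT61. Its probe read 271 with GANT61 and 536 in the chip 2 control, a log2 ratio of -1.08 or 2.11-fold lower. It was below background on chip 1, at 47.2 with cyclopamine and 46.5 in the chip 1 control. The ratio lay between -1.17 and -0.91 over the settings tried, so that whether it passed 2-fold depended on them.

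Genes that work beside villin in the brush border were read from a list of 14, all with a probe. Of these, 10 were above background on at least 1 chip 2 array, with a median log2 ratio with GANT61 of -0.45, against -0.01 over all 10439 genes tested. At least 2-fold lower was 1 (PDZK1) and at least 2-fold higher 0, against 2.03% and 3.5% of all genes. PDZK1, a scaffold that holds transporters at the apical membrane, read 158 with GANT61 and 490.2 in the chip 2 control, a log2 ratio of -1.95. USH1C, or harmonin, and ANKS4B belong to the complex that links the tips of microvilli, and were chosen after their values were seen. The 2 probes of USH1C gave -0.95 (296 with GANT61 and 551 in the control) and -1.14 (259.8 and 531). ANKS4B read 81.9 with GANT61, not above background, and 128 in the chip 2 control, a bound of at least 1.48-fold lower. Other genes of the list, also chosen after their values were seen, stood on the higher side. EZR, or ezrin, which ties the membrane to actin, read 4617 with GANT61 and 3826 in the control (0.50), and NHERF1, its partner, 1909 with GANT61 and 1534 in the control (0.48). Among genes of the villin and gelsolin family other than VIL1, 0 of 5 tested were 2-fold apart with GANT61, against 5.53% of all genes. GSN, or gelsolin, had 0.92.

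CA2, the cytosolic carbonic anhydrase that supplies bicarbonate for ion exchange in colonocytes, was higher with GANT61 at both probes, though by less than 2-fold. The brighter probe read 387 with GANT61 and 271 in the chip 2 control, the other 254 with GANT61 and 179 in the control. Their log2 ratios of 0.80 and 0.82 are nearly equal and lie beyond the spread of 0.27 between probes of a gene. Over the settings the gene's value lay between 0.52 and 0.81, the highest being the mean of both probes. On chip 1 neither probe was above background, the brighter with 66.7 with cyclopamine and 64.8 in the chip 1 control. Of 10 other carbonic anhydrase genes, 3 were tested on chip 2. With GANT61 1 of these (CA12) was at least 2-fold higher and 0 lower, against 3.5% and 2.03% of all genes. CA12, a membrane-bound form, was 2.23-fold higher with GANT61 at its brighter probe, at 1386 against 735 in the chip 2 control. Its other probe read 333 with GANT61 and 229 in the control, a log2 ratio of 0.83, under 2-fold. Over the settings the gene's log2 ratio lay between 0.91 and 1.16, so that whether it passed 2-fold depended on them.

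ALPI, the intestinal alkaline phosphatase of the brush border, was present on chip 1 alone. It read 2447 with cyclopamine and 3040.1 in the chip 1 control, against 83.1 with GANT61 and 74.2 in the chip 2 control. The log2 ratio with cyclopamine was -0.01, and between the controls ALPI was at least 61.6-fold higher on chip 1 on the normalised scale. The deposited intensities, which still hold the background, stood in a ratio of 41, so the size depends on how background is handled. With median scaling and in the deposited series table the ratio with cyclopamine was -0.30 and -0.31, where the median of all 8999 genes tested was -0.25 and -0.19.
ALPI, chr2:232455903-232456152, plus strand: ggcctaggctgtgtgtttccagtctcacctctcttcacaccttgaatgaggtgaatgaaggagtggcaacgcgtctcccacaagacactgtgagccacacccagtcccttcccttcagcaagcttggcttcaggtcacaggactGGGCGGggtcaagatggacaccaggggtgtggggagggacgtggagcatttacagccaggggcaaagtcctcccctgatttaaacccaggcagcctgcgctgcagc
The ALPI window, shown as that of the gene that ran against the other markers, held 1 GGGCGG and neither of the other motifs. On the reference ALPI follows ALPG, a close relative, on chromosome 2. The probe of ALPP, the placental form, read 4586 with cyclopamine and 6132 in the chip 1 control, against 1643 with GANT61 and 2193 in the chip 2 control. ALPL, the tissue-nonspecific form, read 2181 with cyclopamine and 3298 in the chip 1 control, against 58.2 with GANT61 and 56.2 in the chip 2 control, both not above background, whereas ALPG was above background nowhere. The ALPI and ALPP genes are similar in sequence, so the symbols are less certain, and a part of ALPP transcripts in the ALPI reading was not tested. Of 7 placental markers, 2 were above background on each chip 1 array, CGA, the hormone alpha subunit, and PSG4. CGA read 5666 with cyclopamine and 7131 in the chip 1 control, against 71.5 with GANT61 and 67.7 in the chip 2 control. The summed intensity of the list was 6635 with cyclopamine and 7859 in the chip 1 control, against 497 with GANT61 and 459 in the chip 2 control. Most of the sum on chip 1 was CGA. KISS1 was above background on the chip 2 arrays alone, at 95.3 with GANT61 and 90.6 in the chip 2 control. On chip 1 it read 107 with cyclopamine and 92.3 in the chip 1 control, not above background. Its log2 ratio between the controls was -0.33, and its readings lay near background on both chips. The remaining genes of the list were above background on no array.

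DPP4, a membrane peptidase of the brush border that trims peptide hormones, was the only gene of the 10 above background on arrays of both chips. It read 116 with cyclopamine and 83.7 in the chip 1 control, and 162 with GANT61 and 185 in the chip 2 control. With cyclopamine the detection p was 0.00649, just inside the threshold, and 0.4 in the control, so the difference was a bound of at least 1.19-fold higher. It was tested because of that array alone. The log2 ratio with GANT61 was -0.12, inside the spread between probes. Between the controls DPP4 was at least 1.91-fold lower on chip 1. Of 6 relatives of DPP4, 4 were tested in each compound's comparison and 0 were 2-fold apart. Over all genes tested, 5.01% were 2-fold apart with cyclopamine and 5.53% with GANT61.

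FABP1, which carries fatty acids in absorptive cells of the gut and in liver, lay at the edge of detection. It read 104 with cyclopamine and 92.1 in the chip 1 control, and 71.8 with GANT61 and 88.9 in the chip 2 control. Only the last passed, with a detection p of 0.0039, and the cyclopamine array missed with 0.026. No fold can be given for it.

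**Figure D2:**
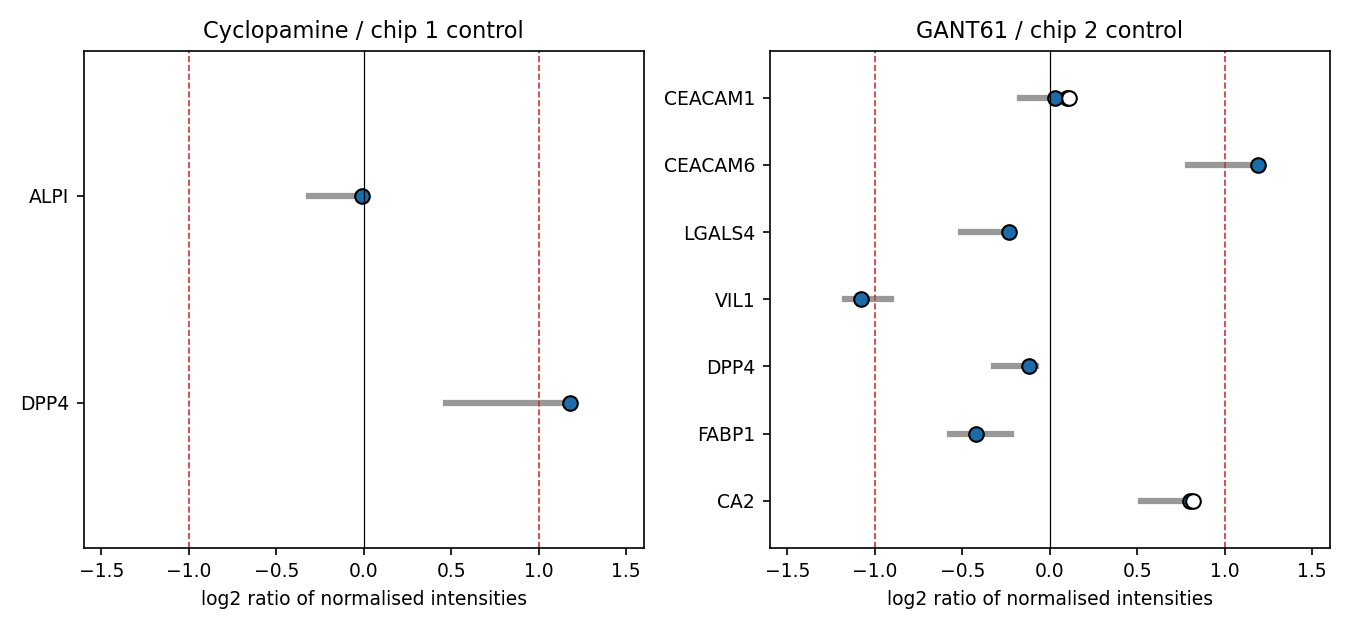
Log2 ratio of normalised intensities (x axis) for each gene tested with cyclopamine (left) and GANT61 (right), each against the control of its chip, 1 array a group. Filled points are a gene's brightest probe, open points its other probes, grey bars the range over the settings tried and dashed lines 2-fold. With GANT61 CEACAM6 stands at 1.19, VIL1 at -1.08 and both CA2 probes near 0.8, and CEACAM6 and VIL1 have bars that cross the 2-fold line.

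Counted together, 1 of 7 tested genes was at least 2-fold higher with GANT61 (CEACAM6) and 1 at least 2-fold lower (VIL1), where 3.5% and 2.03% of all genes were (5.53% either way, and 5.51% of those above background on both arrays). The median log2 ratio of the 7 was -0.12. With cyclopamine 2 of 10 could be tested, ALPI and DPP4, and 1 (DPP4) was at least 2-fold higher by its normalised values though not by its bound, against 3.1% of 8999 genes higher and 1.91% lower (5.01% either way, and 2.14% of those above background on both arrays). With median scaling 37.2% of all 2-fold calls with GANT61 were on the higher side, against 63.3% here, and 34.7% with cyclopamine, against 61.9%. In bulk RNA, fewer cells of a type and less RNA per cell cannot be told apart. Since no group had a second array, none of these differences has a replicate check.

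Between the controls, 6 of 8 tested genes were at least 2-fold lower on chip 1 by normalised values and 1 (ALPI) at least 2-fold higher, with FABP1 between. Over all 10905 genes, 23.3% were lower and 19.1% higher (42.4% either way, and 35.3% of those above background on both arrays). This comparison shares a control with each of the other two, so they are not independent. For every called gene 1 control was below background, so each of these differences is a bound. As bounds at the brightest probe, 4 were at least 2-fold lower (CEACAM1, LGALS4, VIL1 and CA2) and ALPI at least 2-fold higher. CEACAM6 had a bound of 1.36-fold and DPP4 of 1.91-fold. The dimmest CEACAM1 probe and the second CA2 probe had bounds of 1.72-fold and 1.82-fold.

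Other absorptive genes on chip 2 are given from lists. Of 17 genes of surface colonocytes with a probe, 9 were tested with GANT61. Their median log2 ratio was 0.52, and 0 were 2-fold apart in either direction, against 5.53% of all genes tested. KRT20, the keratin of mature colonocytes, was chosen after its values were seen. It read 1618 with GANT61 and 1035 in the chip 2 control (0.85), and its second probe gave 1.02. SCNN1A, a subunit of the epithelial sodium channel, had 4238 with GANT61 and 3349 in the control (0.58). On the other side of 0 were BEST4, a chloride channel gene (-0.29, with 129.5 with GANT61 and 159 in the control), CLCA4 (-0.58) and GUCA2A (-0.14), the last 2 not above background with GANT61. The median is the value of SLC9A3, a sodium and proton exchanger, which read 104 with GANT61 and 79.3 in the control, not above background there. SLC26A3, CA1, CA4, AQP8 and MS4A12, which mark fully mature colonocytes and were singled out after their values were seen, were above background on no array. Of 12 digestive hydrolases of the brush border with a probe, 1 was above background anywhere: ENPEP, at 108 with GANT61 and 104 in the chip 2 control. Of 14 genes of lipid uptake and handling, 4 were tested with GANT61, with a median of -0.06. Of these 0 were 2-fold apart, against the same 5.53% of all genes. ACSL5, which activates long-chain fatty acids, read 2478 with GANT61 and 2846 in the control, and 69.2 with cyclopamine and 60.8 in the chip 1 control.

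**Figure D3:**
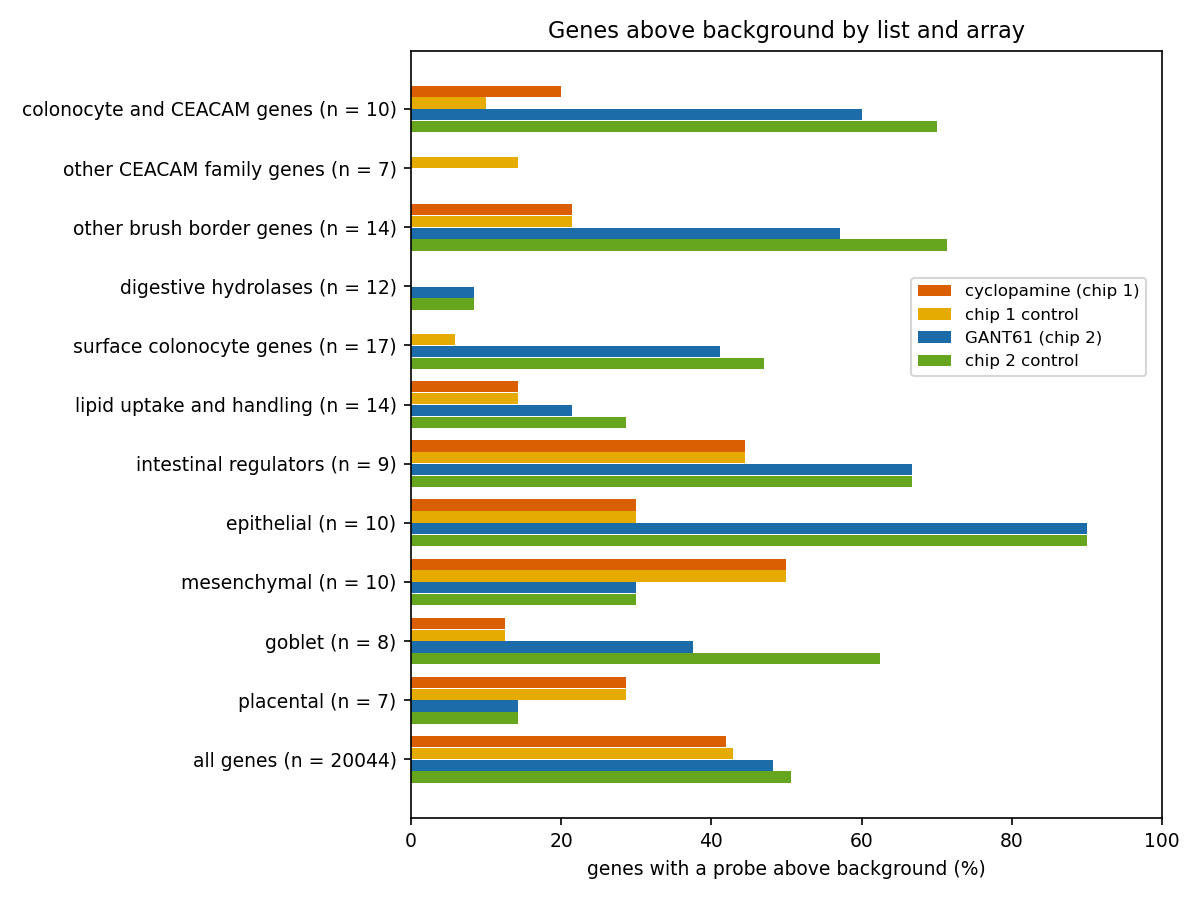
Share of genes with a probe that were above background (%, x axis) in each list (rows, n is the number of genes with a probe) on each of the 4 arrays, 1 array a group. The bars of the 10 genes, of other brush border genes and of epithelial markers are longer on the chip 2 arrays, and those of mesenchymal and placental markers on the chip 1 arrays.

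Regulators of the intestinal programme were read from a list with 9 measured genes, of which 6 were tested with GANT61. At least 2-fold lower was 1 (CDX2) and at least 2-fold higher 1 (KLF4), against 2.03% and 3.5% of all genes. CDX2, the homeobox factor that sets intestinal identity, was lower, at 145 with GANT61 and 334 in the chip 2 control, a log2 ratio of -1.44. HNF4G, a nuclear receptor of enterocytes, chosen after its values were seen, read 226 with GANT61 and 419 in the control (-0.99). KLF4, a zinc finger factor of differentiated epithelium, was higher, with 253 with GANT61 and 107 in the control at the brighter probe (1.77) and 153 against 98.9 at the other (0.94). ELF3 (0.18), PPARG (-0.02) and KLF5 (-0.38), the last chosen after its value was seen, lay nearer to 0. The signs of CDX2, HNF4G and KLF4 held in all settings tried. With cyclopamine CDX2 and HNF4G were above background on neither array, and the brighter KLF4 probe had a log2 ratio of 0.17, whose sign turned with median scaling and in the deposited series table.

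**Figure D4:**
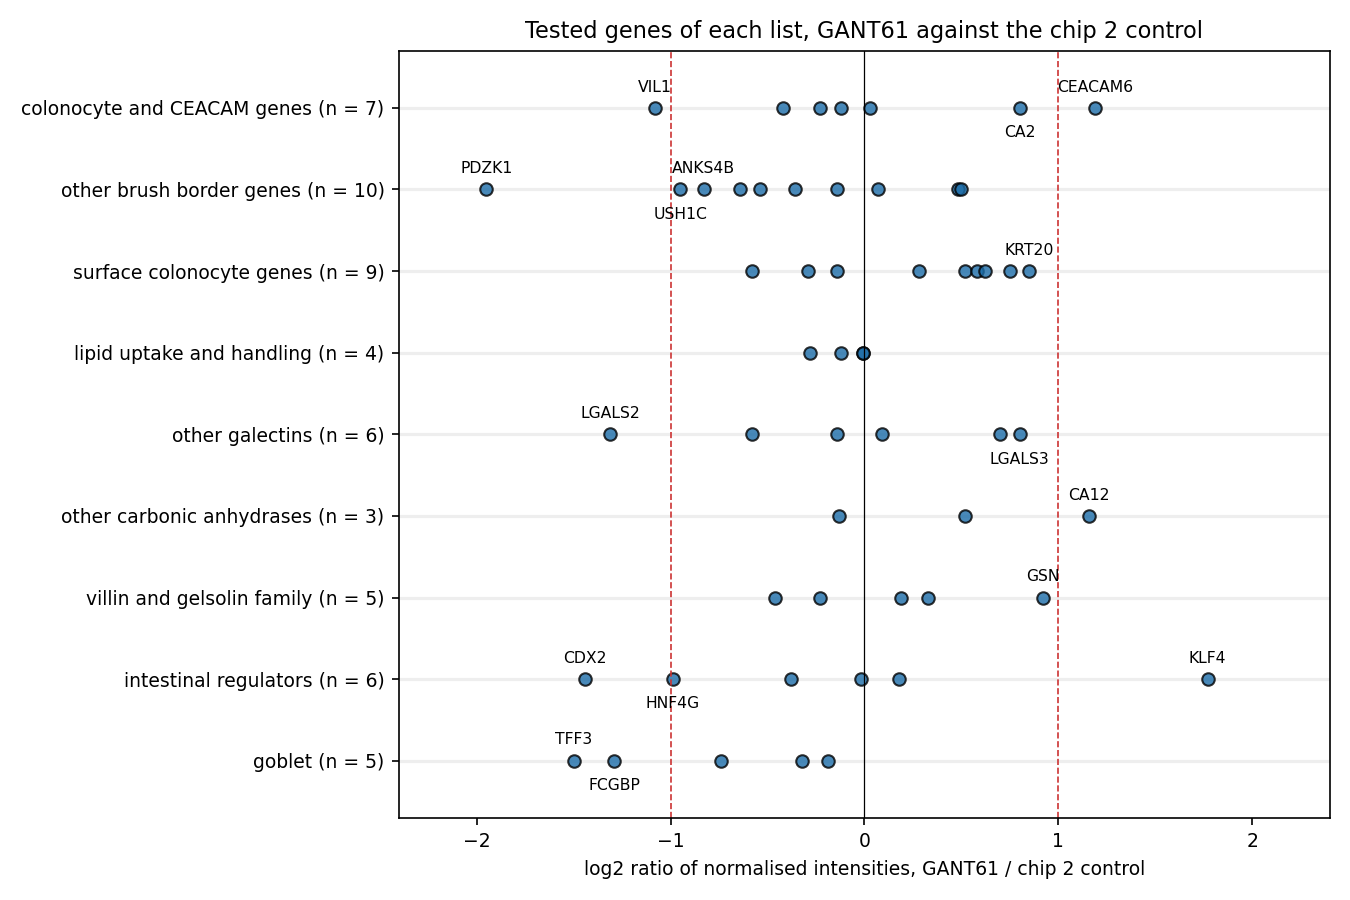
Log2 ratio of normalised intensities, GANT61 over the chip 2 control (x axis), of the tested genes of each list (rows, n is their number), 1 array a group, each point a gene at its brightest probe, with names from 0.8 outwards and dashed lines at 2-fold. Brush border genes spread to the lower side as far as PDZK1 at -1.95, surface colonocyte genes centre above 0 with a median of 0.52, and CDX2 and KLF4 stand on opposite sides.

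Goblet cells, the mucus-secreting lineage, were read by their own markers. Of 8 goblet cell markers 5 were tested with GANT61. By normalised values 2 were at least 2-fold lower (TFF3 and FCGBP) and 0 higher, against 2.03% and 3.5% of all genes. The median of the 5 was -0.74. FCGBP was below background with GANT61, which leaves a bound of at least 1.74-fold lower. Their summed intensity was 2389 with GANT61 and 3289 in the chip 2 control. TFF3, a secreted trefoil peptide, read 211 with GANT61 and 523 in the control. AGR2, the brightest of the list on chip 2, read 1659.8 with GANT61 and 2059 in the control (-0.19), and SPDEF and MUC2 had -0.74 and -0.32, MUC2 not above background with GANT61. SPINK4 of the same list was above background on chip 1 alone, at 629 with cyclopamine and 422 in the chip 1 control (0.86). On chip 2 it read 42.3 with GANT61 and 45.5 in the control. Leukocyte markers had 1 of 5 above background on each chip 2 array, and endothelial and fibroblast markers 0 of 5 and 0 of 6. The part of other lineages in the values above was not tested.

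With cyclopamine, 25 genes of the lists of related genes were tested. By normalised values 2 were at least 2-fold lower than in the chip 1 control and 0 higher, against 1.91% and 3.1% of all genes. Among the marker lists PSG4, given above, was the only such gene, and was higher. GSN read 335 with cyclopamine and 913 in the chip 1 control (-1.23). SCNN1A read 87.7 with cyclopamine, not above background, and 135 in the chip 1 control, which leaves a bound of at least 1.43-fold lower, under 2-fold.

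For 4 of the 10 genes, the genes whose levels over the 4 arrays were most alike are named, by Euclidean distance between normalised log2 levels centred on each gene's mean. CEACAM1 was nearest to RAB25 (0.22), CTSH (0.25) and ACSL5 (0.27), and LGALS4 to FOXQ1 (0.38), EPCAM (0.44) and CDH1 (0.51). CEACAM6 was nearest to RAP1GAP (0.09), HSPH1 (0.19) and CDCP1 (0.19), although RAP1GAP was well detected on chip 1, with 618 with cyclopamine and 940.3 in the chip 1 control. ALPI was nearest to BEX3 (0.12), SRGN (0.15) and RASIP1 (0.15). With 4 arrays, such distances mostly restate the gap between the chips. CEACAM5 had no such list, as it was detected on no array.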

How the data were processed

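Per the labels, total RNA was amplified, labelled and hybridised to Illumina HumanHT-12 V4 BeadChips, 1 array for each of 4 groups. The deposited tables give bead intensity per probe on a linear scale with a detection p-value beside it. The authors' deposited series table equals log2 of those intensities within 5e-09 on each array. The software behind the summary is not given in the sources used here. Of the probes, 30111 had 1 gene symbol, 8 several and 17108 none, and 30072 matched a current identifier. Median intensity ran from 72.8 to 91.1 and probes above background from 13453 to 17068.

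Intensities were background corrected and quantile normalised over the 4 arrays with neqc of limma 3.58.1 (R 4.3.3, offset 16), after its use was tested on simulated data. Each gene took its brightest probe. Genes above background (detection p below 0.01) on either array compared were used, and ratios were counted from 2-fold. With 1 array a group there is no test. Where 1 array was below background, a level under the lowest detected on that array was raised to it, which gives a bound. The deposited labels name no replicate cultures. The genes and lists were chosen with earlier results of these data known. List genes were named if 2-fold apart, at most 4 a list and comparison, others where stated. ENPEP, CEACAM21, ALPG, BEST4, CLCA4, GUCA2A, SLC9A3, AGR2, SPDEF, MUC2, KRT8, KRT18, CLDN7, KISS1 and SPINK4 were added after their values were seen. Promoter windows are from RefSeq (GRCh38.p14) and 8 of the 10 genes matched.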

Additional observations from a re-analysis of the deposited data

Results flagged for a closer look

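By normalised values SCNN1A and GSN went opposite ways with the compounds, each by more than the spread between probes of a gene. That spread comes from probes above background on both arrays and does not measure variation between cultures. SCNN1A had a log2 ratio of -1.48 with cyclopamine and of 0.58 with GANT61. With cyclopamine the treated array was below background, which leaves a bound of at least 1.43-fold lower. GSN had -1.23 with cyclopamine and 0.92 with GANT61, from the brighter of its 2 probes. With 1 array a group, this difference between the compounds was not tested, and each compound was on its own chip.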

How the results depend on the processing

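The values are ratios between lone arrays, and dim probes near background limit them most. Of 94 log2 ratios of the 10 genes under alternatives that can change a ratio (3 detection filters, which cannot, are left out), 61 moved by less than the SD between probes of a gene, 33 by more, and none of those 2-fold apart turned its sign. The 1 gene 2-fold apart with cyclopamine (DPP4) was 0 with an offset of 50, without background correction, with neqc within each chip, with median scaling, in the series table and with detection on both arrays. The 2 with GANT61 were 0 with an offset of 50, without background correction and in the series table, 1 (CEACAM6) with neqc within each chip and 1 (VIL1) with median scaling. Of the 7 between controls 0 could be tested with detection on both arrays. Over all genes, the 451 with cyclopamine became 161 with an offset of 50, 141 without background correction, 137 in the series table and 171 with detection on both arrays. The 577 with GANT61 became 372, 330 and 315 in the first 3 of these, and the 4625 between controls became 2764 with detection on both arrays. The other counts stayed within 1.5 times. Smaller folds under an offset of 50 follow from the offset itself, and for the other settings the cause was not tested. No paired analysis was possible because each group has 1 array.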
